A study of Mus musculus with 16 samples.

Results

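The integrated stress response and the genes switched on by its transcription factor ATF4 were followed as 41 named genes. They were chosen by symbol, with no measured value in the rule but with earlier results of these data known. All were found among the 20622 genes of the total RNA tables and among the 15235 genes with a transcript in the tables of ribosome-protected fragments (RPFs). By role they are 7 transcription factors, 9 feedback and stress effectors, 13 enzymes of amino acid and one-carbon metabolism, 8 amino acid transporters and 4 eIF2alpha kinases. The cells were KM cells, grown from lung tumours of 1 male mouse that carried Rosa26 LSL-MYC/LSL-MYC, and kept untreated. KM_4A2cr cells had received a lentiviral Cas9 vector with a guide against the coding region of *Eif4a2*, which encodes an RNA helicase of translation initiation, and are a pool of 4 clones without eIF4A2 protein. KM_NTC cells carry a non-targeting guide, both lines were selected with puromycin, and whether KM_NTC cells were cloned is not given in the sources used here. RPFs and cytoplasmic total RNA were sequenced from the same lysate in 4 replicates per cell line, made on different days, which gave 16 libraries.

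In the integrated stress response, 4 kinases that each sense another stress phosphorylate eIF2alpha, which lowers translation initiation as a whole. Translation of *Atf4* rises under the same condition, because upstream open reading frames in its leader hold ribosomes away from the coding sequence when initiation is efficient. ATF4 then induces enzymes and transporters that supply amino acids, together with the phosphatase subunit *Ppp1r15a*, which reverses the phosphorylation. Tumour cells with high MYC are known to lean on this pathway to balance protein synthesis against amino acid supply.

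ATF4 pairs with C/EBP proteins at a composite element in target promoters, so the RefSeq promoter windows of the members, 250 bases before to 50 bases after the start (GRCm38.p6), were searched for its core. The core was spelled TGATGNAA and read on both strands. Of the 41 members, 34 had a window in the table, and 9 of these (26.5%) held the core, beside 4.51% of all 27025 genes with a window. These were *Asns*, *Atf3*, *Chac1*, *Nupr1*, *Pck2*, *Pycr1*, *Slc1a4*, *Trib3* and *Vldlr*. The shorter CRE motif TGACG, also read on both strands, was in 15 of the 34 members (44.1%) and in 23% of all genes, and 0 matches of the one overlapped the other in the members' windows. Stretches of 30 bases are shown for 5 members whose values are given by library, to let the element be compared with their response. Capitals mark the core, which lies on the opposite strand in all but *Asns*:
Atf3: ccttctcgcacTTGCATCAccaagtccgcg
Chac1: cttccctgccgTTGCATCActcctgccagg
Trib3: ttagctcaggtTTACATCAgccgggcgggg
Asns: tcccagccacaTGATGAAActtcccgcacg
Vldlr: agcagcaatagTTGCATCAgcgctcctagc
On the gene's own strand these lie at chr1:191183425-191183454 (minus) for *Atf3*, chr2:119351038-119351067 (plus) for *Chac1*, chr2:152344028-152344057 (minus) for *Trib3*, chr6:7693214-7693243 (minus) for *Asns* and chr19:27216809-27216838 (plus) for *Vldlr*. The core began 110, 193, 23 and 200 bases before the start in *Atf3*, *Chac1*, *Asns* and *Vldlr*, and at base 15 after it in *Trib3*. A match describes these letters only and does not show binding.

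RPF libraries held 4512403 to 9621848 counts, and total RNA libraries 5350919 to 9312622. The 2 replicate 4 libraries of each kind stood apart from the others. *Eif4a2* itself was at 97.6 to 122 CPM (counts scaled to the library's effective size) in RPFs of KM_NTC replicates 1 to 3 and at 388 in replicate 4. It was lower in KM_4A2cr than in KM_NTC in each of the 4 pairs, at ratios of 0.522 to 0.890, and the quasi-likelihood test of edgeR gave a log2 fold change of -0.49 (SE 0.15, adjusted p = 0.0941). Total RNA of *Eif4a2* gave -0.18 (SE 0.13, adjusted p = 0.504 by edgeR). What sets the level of this transcript was not tested, and the counts hold no measure of eIF4A2 protein. All 6 epithelial markers had a median of at least 1 TPM (a level corrected for transcript length and library total), with sums of 4174 to 5206 TPM in KM_NTC and 4307 to 5918 in KM_4A2cr. Of 7 alveolar type II markers *Abca3* alone reached that median, and *Sftpc* and *Sftpb* were at 0. Of 7 fibroblast markers *Pdgfra* alone did, with sums of 1.07 to 3.03 and 1.38 to 2.85 TPM and *Col3a1* and *Dcn* at 0. Of 7 macrophage and leukocyte markers *Cd14* and *Cd68* did, with sums of 60.8 to 232 and 61.6 to 160 TPM and *Adgre1* and *Lyz2* at 0, and of 4 endothelial markers 0 did. *Epcam* (0.51), *Cdh1* (0.44) and *Abca3* (0.54) were called higher in KM_4A2cr in RPFs, as was *Abca3* in total RNA (0.62). Of the 6 epithelial markers, 3 were above 0 in RPFs and the median log2 fold change was 0.04. Without replicate 4, *Pdgfra* was called higher in RPFs (1.04) and total RNA (0.58), and *Cd68* in total RNA (0.52). The epithelial marker *Krt18* was called lower in total RNA without replicate 4 (-0.29). The part of these markers in the members' differences was not tested.

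The members showed no common direction between KM_4A2cr and KM_NTC cells. In RPFs, 39 members passed the filter on low counts, and 2 of them (5.13%) had an adjusted p under 0.1, beside 10.3% of all 10291 genes tested. *Vldlr*, a lipoprotein receptor induced by ATF4, was higher (1 of 39, beside 6.6% of all genes), and *Stc2*, a secreted glycoprotein, was lower (1 of 39, beside 3.72%). *Stc2* passed the filter mainly through KM_NTC, where it was high, so its count is a description only. The median log2 fold change of the 39 was -0.06, with 17 above 0, and that of all tested genes was -0.01. In total RNA, *Vldlr* and *Ddit4* were higher, or 2 of 39 (5.13%) beside 6.13% of all 10880 genes in either direction and 4.35% in this one. Lower calls were made for 0 members and for 1.78% of all genes, and the median was 0.04 for members and 0.01 for all. Each share of members called in either direction rests on 2 genes and is given as a description beside the share of all genes. With scaling to library size alone, which lowered the median of all genes to -0.14 in RPFs, higher calls made up 29.8% of all RPF calls in place of 63.9%, and 5 members (12.8%) passed, beside 15.7% of all genes. *Phgdh*, *Shmt2* and *Slc38a2*, all lower, joined *Stc2* and *Vldlr*. In total RNA the share was 23.2% in place of 70.9%, and 2 members (5.13%) passed, beside 10.4% of all genes. In these bulk libraries, a change in the number of responding cells and a change in RNA per cell cannot be told apart.

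**Figure D1:**
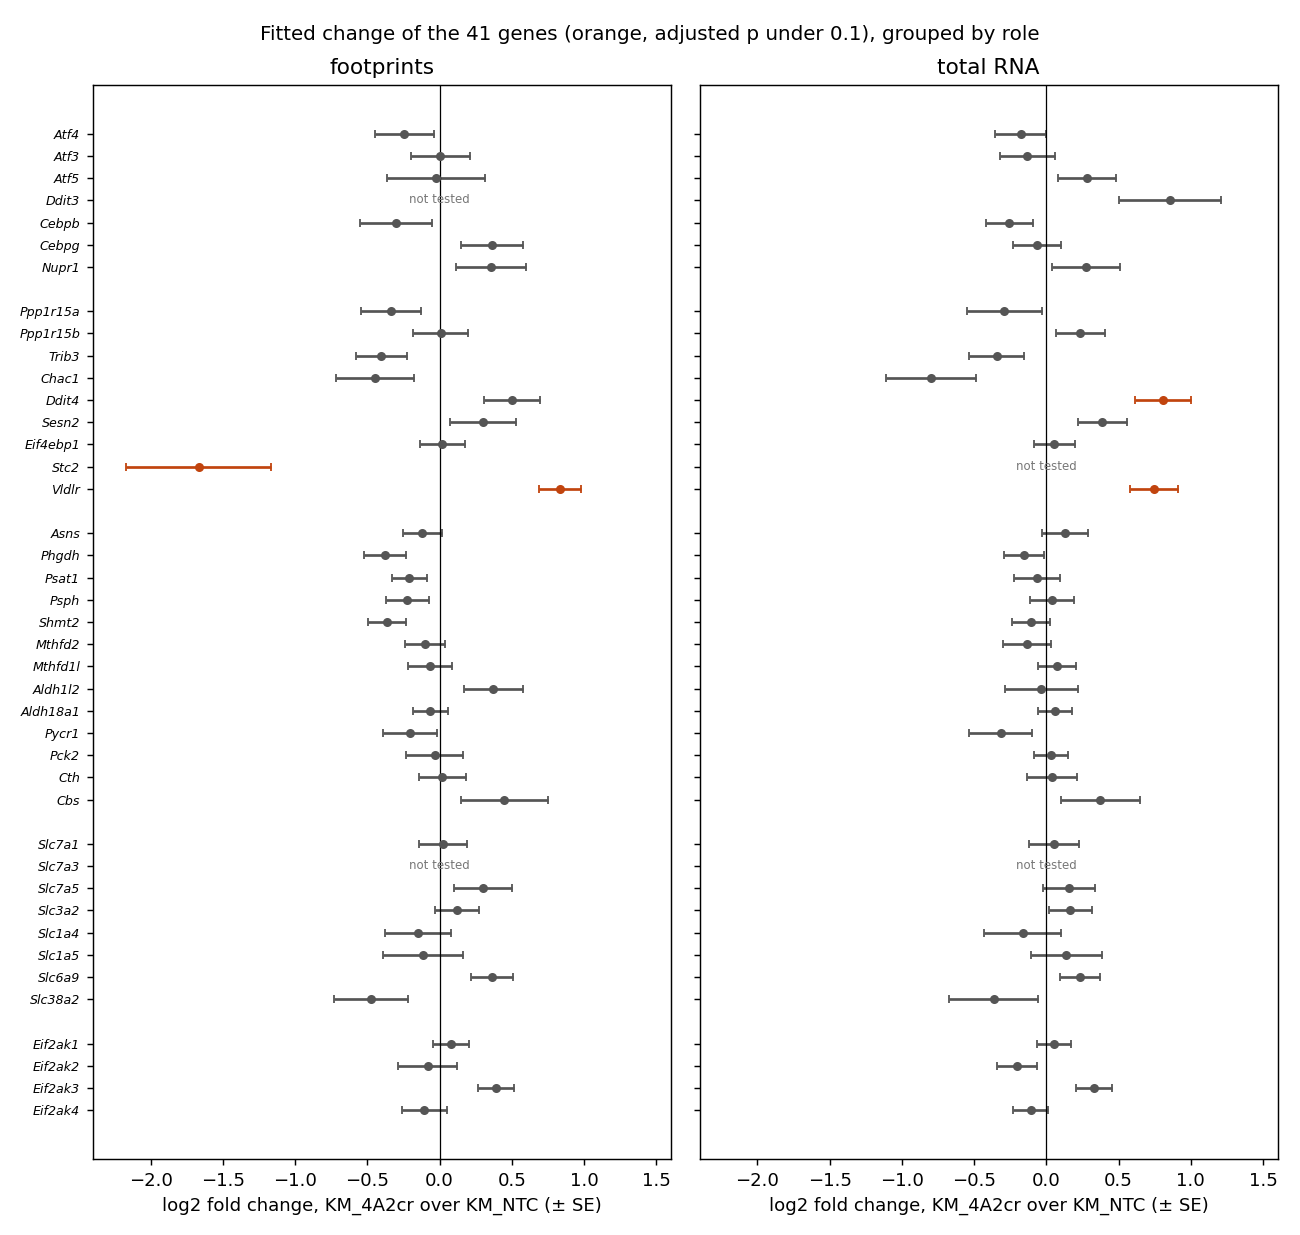
Log2 fold change of the 39 genes tested in each kind, out of 41, KM_4A2cr over KM_NTC, with its standard error, in footprints and in total RNA (4 replicates per cell line), grouped by role. The others are marked as not tested. The members that pass an adjusted p of 0.1 are *Stc2* and *Vldlr* in footprints and *Ddit4* and *Vldlr* in total RNA.

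*Atf4*, the effector of the response, was among the most abundant members. Its total RNA had a median of 334 TPM in KM_NTC, the second of 41 after the amino acid transporter *Slc38a2* at 1055, and a range of 260 to 461 that overlapped that of *Slc3a2* at 252 to 469. In total RNA, *Atf4* was at 234, 343, 357 and 280 CPM in KM_NTC replicates 1 to 4 and at 168, 266, 277 and 397 CPM in KM_4A2cr. It was lower in KM_4A2cr in replicates 1 to 3 and higher in replicate 4, and the cell lines overlapped with or without replicate 4. The fitted change was -0.18 (SE 0.18, adjusted p = 0.641 by edgeR). Its RPFs were at 50.5, 67.7, 51.4 and 56 CPM in KM_NTC and at 29.7, 42.3, 54 and 75.1 CPM in KM_4A2cr, and the log2 fold change was -0.25 (SE 0.20, adjusted p = 0.508 by edgeR).

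*Ddit3*, which encodes the pro-apoptotic factor CHOP, was scarce. Its total RNA was at 1.4, 1.53, 1.21 and 6.89 CPM in KM_NTC and at 2.78, 1.4, 0.756 and 21.2 CPM in KM_4A2cr. Both cell lines were highest in replicate 4, and the log2 fold change of 0.86 (SE 0.35) did not pass the test (adjusted p = 0.228 by edgeR). In RPFs it summed to 32 and 40 counts over the 4 libraries of each line and was not tested. The other factors were *Atf3*, *Atf5*, the C/EBP family genes *Cebpb* and *Cebpg*, and *Nupr1*. RPFs of *Atf3*, a repressor that ATF4 induces, were at 8.86, 32.7, 23.7 and 55.3 CPM in KM_NTC and at 8.93, 27.8, 16.3 and 91.7 CPM in KM_4A2cr. The lines overlapped, and the log2 fold change was 0.0053 (SE 0.21, adjusted p = 0.993 by edgeR). None of these factors passed the test in either kind of library, with RPF log2 fold changes between -0.30 for *Cebpb* and 0.36 for *Cebpg*.

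Among the effectors, *Vldlr* had the clearest difference. In RPFs it was at 70.2, 75.1, 113 and 407 CPM in KM_NTC replicates 1 to 4 and at 130, 153, 231 and 533 CPM in KM_4A2cr. Every KM_4A2cr library was above its paired KM_NTC library, although the cell lines overlapped through replicate 4 of KM_NTC. The log2 fold change was 0.83 (SE 0.15, adjusted p = 0.0194 by edgeR). In total RNA, at 77.6, 106, 143 and 454 CPM against 128, 231, 275 and 519 CPM, it was 0.74 (SE 0.17, adjusted p = 0.0406 by edgeR). With any one of replicates 1 to 3 left out, the RPF log2 fold change of *Vldlr* was 0.77 to 0.81 and that of total RNA 0.62 to 0.75, neither past the test, and without replicate 4 they were 0.98 and 0.93.

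*Ddit4*, an inhibitor of mTORC1 that several stresses induce, rose in total RNA. It was at 94.1, 52.1, 49.5 and 59.1 CPM in KM_NTC and at 115, 66.6, 131 and 136 CPM in KM_4A2cr, higher in each pair. The log2 fold change was 0.80 (SE 0.19, adjusted p = 0.0548 by edgeR), and without replicate 3 it was 0.61 and did not pass. RPFs of *Ddit4* gave 0.50 (SE 0.19, adjusted p = 0.164 by edgeR) and were higher in 3 of 4 pairs. *Stc2* was near the limit of detection. Its RPFs summed to 69 counts in KM_NTC and 19 in KM_4A2cr, at 2.35, 1.39, 3.01 and 1.47 CPM against 1.57, 0.123, 0.701 and 0 CPM, so that few counts carry the value. The log2 fold change was -1.67 (SE 0.50, adjusted p = 0.0941 by edgeR), and KM_4A2cr was the lower of each pair. It did not pass without replicate 2 or 3, at -1.44 and -1.47, and missed the filter without replicate 1. Total RNA of *Stc2* summed to 49 counts in KM_NTC and 13 in KM_4A2cr and was not tested in the main fit.

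The feedback genes that restore translation gave values on both sides of 0. *Ppp1r15a*, the inducible phosphatase subunit GADD34, was at 35.8, 59.3, 64.1 and 118 CPM in total RNA of KM_NTC and at 26.1, 37.2, 32.5 and 217 CPM in KM_4A2cr. It was lower in KM_4A2cr in 3 pairs and higher in replicate 4, which was the highest library of both lines. The fitted changes were -0.29 (SE 0.26, adjusted p = 0.601) in total RNA and -0.33 (SE 0.21, adjusted p = 0.368) in RPFs, both by edgeR. *Ppp1r15b*, its constitutive counterpart, gave 0.23 (SE 0.17, adjusted p = 0.513 by edgeR) in total RNA and 0.01 in RPFs (SE 0.19, adjusted p = 0.985 by edgeR), a value whose sign changed with the scaling.

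The pseudokinase *Trib3*, which binds and restrains ATF4, was at 19.3, 35.6, 17.8 and 28.7 CPM in RPFs of KM_NTC and at 10.9, 27.3, 11.8 and 32.5 CPM in KM_4A2cr. Again the first 3 pairs were lower in KM_4A2cr and the fourth was higher, and the log2 fold change was -0.40 (SE 0.17, adjusted p = 0.205 by edgeR). *Chac1*, which degrades glutathione, was scarce, at 6.6, 3.47, 0.821 and 2.72 CPM in RPFs of KM_NTC and at 5.79, 1.72, 0.981 and 1.61 CPM in KM_4A2cr. It was lower in KM_4A2cr in 3 of 4 pairs, and gave -0.45 in RPFs (SE 0.27, adjusted p = 0.357 by edgeR) and -0.80 in total RNA (SE 0.31, adjusted p = 0.206 by edgeR). Of the 9 members with the element core in their promoter window, 3 were above 0 in RPFs and 1, *Vldlr*, passed the test, while of the 24 tested members whose window lacked the core, 9 were above 0 and 1 passed. The 6 tested members with no window were left out.

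**Figure D2:**
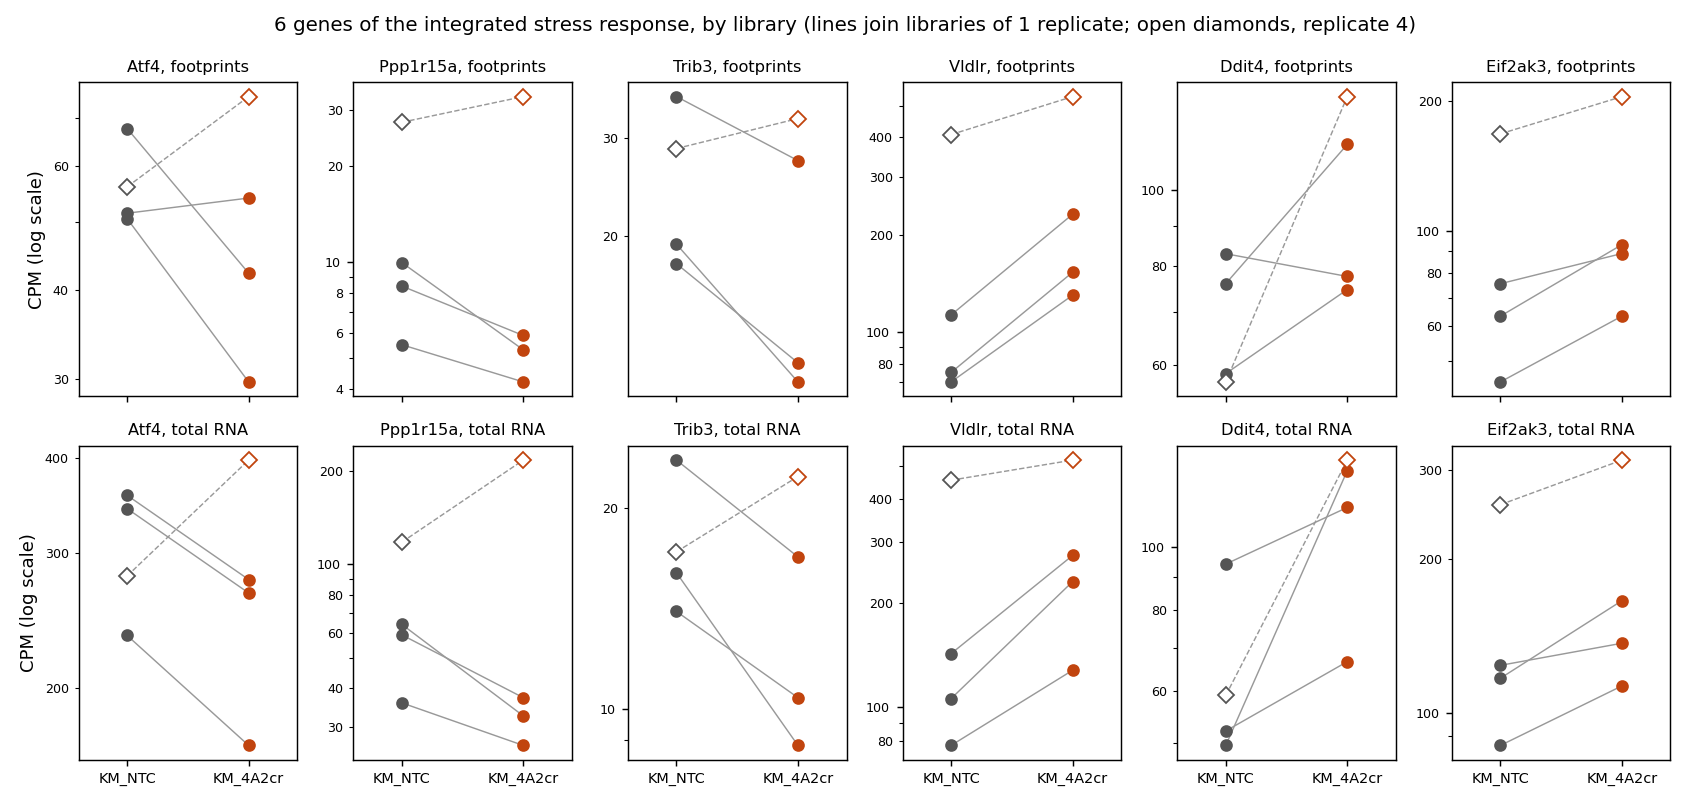
CPM on a log axis of 6 genes in each library, footprints above and total RNA below, with lines joining the 2 cell lines of 1 replicate and open diamonds for replicate 4. *Vldlr* and *Eif2ak3* were higher in KM_4A2cr in all 4 pairs of both kinds, whereas *Ppp1r15a* and *Trib3* were lower in 3 pairs and higher in replicate 4.

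The enzymes that make serine, glycine, asparagine, proline and mitochondrial one-carbon units did not pass the test in either kind of library. In RPFs, 10 of the 13 were below 0 with a median of -0.10, and 7 of 13 were above 0 in total RNA with a median of 0.03. *Phgdh*, the first enzyme of serine synthesis, was at 940, 619, 539 and 267 CPM in RPFs of KM_NTC and at 741, 520, 498 and 152 CPM in KM_4A2cr. It was lower in each of the 4 pairs, and the log2 fold change was -0.38 (SE 0.14, adjusted p = 0.16 by edgeR). Levels differed more among replicates than between lines, a spread that the pairing in the test takes out. *Shmt2*, the mitochondrial serine hydroxymethyltransferase, gave -0.36 (SE 0.13, adjusted p = 0.145 by edgeR), also lower in 4 of 4 pairs. *Psat1*, the aminotransferase that follows *Phgdh*, was lower in 4 of 4 pairs at -0.21 (SE 0.12, adjusted p = 0.334 by edgeR).

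*Asns*, asparagine synthetase, was at 278, 553, 415 and 221 CPM in RPFs of KM_NTC and at 206, 495, 413 and 241 CPM in KM_4A2cr. The lines overlapped almost fully, with a log2 fold change of -0.12 (SE 0.13, adjusted p = 0.63 by edgeR) in RPFs and 0.13 (SE 0.16, adjusted p = 0.728 by edgeR) in total RNA. *Mthfd2*, of the mitochondrial folate pathway, gave -0.10 (SE 0.14, adjusted p = 0.702 by edgeR) in RPFs. The remaining 8 enzymes lay between -0.22 for *Psph*, the last enzyme of serine synthesis, and 0.45 for the transsulfuration enzyme *Cbs*, which was scarce at 60 RPF counts over KM_NTC.

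The transporters bring in the amino acids that the response calls for. *Slc38a2*, the glutamine and alanine carrier SNAT2, was the most abundant member, and its RPFs were at 3406, 3458, 5504 and 4883 CPM in KM_NTC and at 3465, 3607, 4030 and 1623 CPM in KM_4A2cr. The 2 lines were close in replicates 1 and 2, and KM_4A2cr was lower in replicates 3 and 4. Its log2 fold change was -0.48 (SE 0.26, adjusted p = 0.3 by edgeR). *Slc7a5* and *Slc3a2*, the light and heavy chains of the leucine carrier LAT1, gave 0.30 and 0.12 in RPFs and did not pass the test. The RPF range over the 7 tested transporters ended at 0.36 for the glycine carrier *Slc6a9*. *Slc7a3*, a cationic amino acid carrier, summed to 8 total RNA counts in each line and was not tested.

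Of the 4 kinases, *Eif2ak3* (PERK), which senses unfolded proteins in the endoplasmic reticulum, was the most abundant, at a median of 53.5 TPM in KM_NTC and a range of 44 to 94.4. The ranges of *Eif2ak1* (HRI), *Eif2ak4* (GCN2) and *Eif2ak2* (PKR) lay below it, between 9.64 and 23.5 TPM, and overlapped each other. In RPFs *Eif2ak3* was at 63.4, 44.6, 75.4 and 168 CPM in KM_NTC and at 92.9, 63.4, 88.6 and 205 CPM in KM_4A2cr. It was higher in KM_4A2cr in all 4 pairs of RPFs and all 4 of total RNA, with log2 fold changes of 0.39 (SE 0.12) and 0.33 (SE 0.12). Neither passed the test, at adjusted p = 0.106 and 0.19 by edgeR. The other kinases lay between -0.10 and 0.08 in RPFs and between -0.20 and 0.05 in total RNA, with adjusted p of 0.496 or more in edgeR. The counts give mRNA and footprints and hold no measure of kinase activity.

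In total RNA, a larger share of members than of all genes lay on the other side of 0 in pair 4 than in pairs 1 to 3. In RPFs that share was near the share of all genes. In RPFs, 6 of 39 members (15.4%) lay on one side of 0 in 4 pairs, beside 30.2% of all tested genes. Of these, *Vldlr* and *Eif2ak3* were higher (5.13%, beside 14.1%) and *Phgdh*, *Psat1*, *Shmt2* and *Stc2* lower (10.3%, beside 16%). In total RNA 4 of 39 (10.3%) did so, beside 25.4% of all genes, and all 4 were higher (beside 12.4%). They were *Vldlr*, *Eif2ak3*, *Ddit4* and *Sesn2*, an inhibitor of mTORC1. In pair 2 *Sesn2* was at 13.6 CPM in both lines, a log2 ratio of 0 after rounding. Lower in 4 pairs of total RNA were 0 members, beside 13%. In total RNA, 16 of 39 members (41%) were on one side of 0 in pairs 1 to 3 and on the other in pair 4, beside 25.9% of all genes. In RPFs 11 (28.2%) were, beside 25.4%, of which 6 were higher in the first 3 pairs (15.4%, beside 13%) and 5 lower (12.8%, beside 12.4%). In total RNA, 9 members were lower in KM_4A2cr in pairs 1 to 3 and higher in pair 4 (23.1%, beside 12.2% of all genes), among them *Atf4*, *Atf3*, *Cebpb*, *Ppp1r15a*, *Trib3* and *Chac1*. The 7 with the opposite pattern (17.9%, beside 13.6%) were 6 transporters and *Ppp1r15b*.

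**Figure D3:**
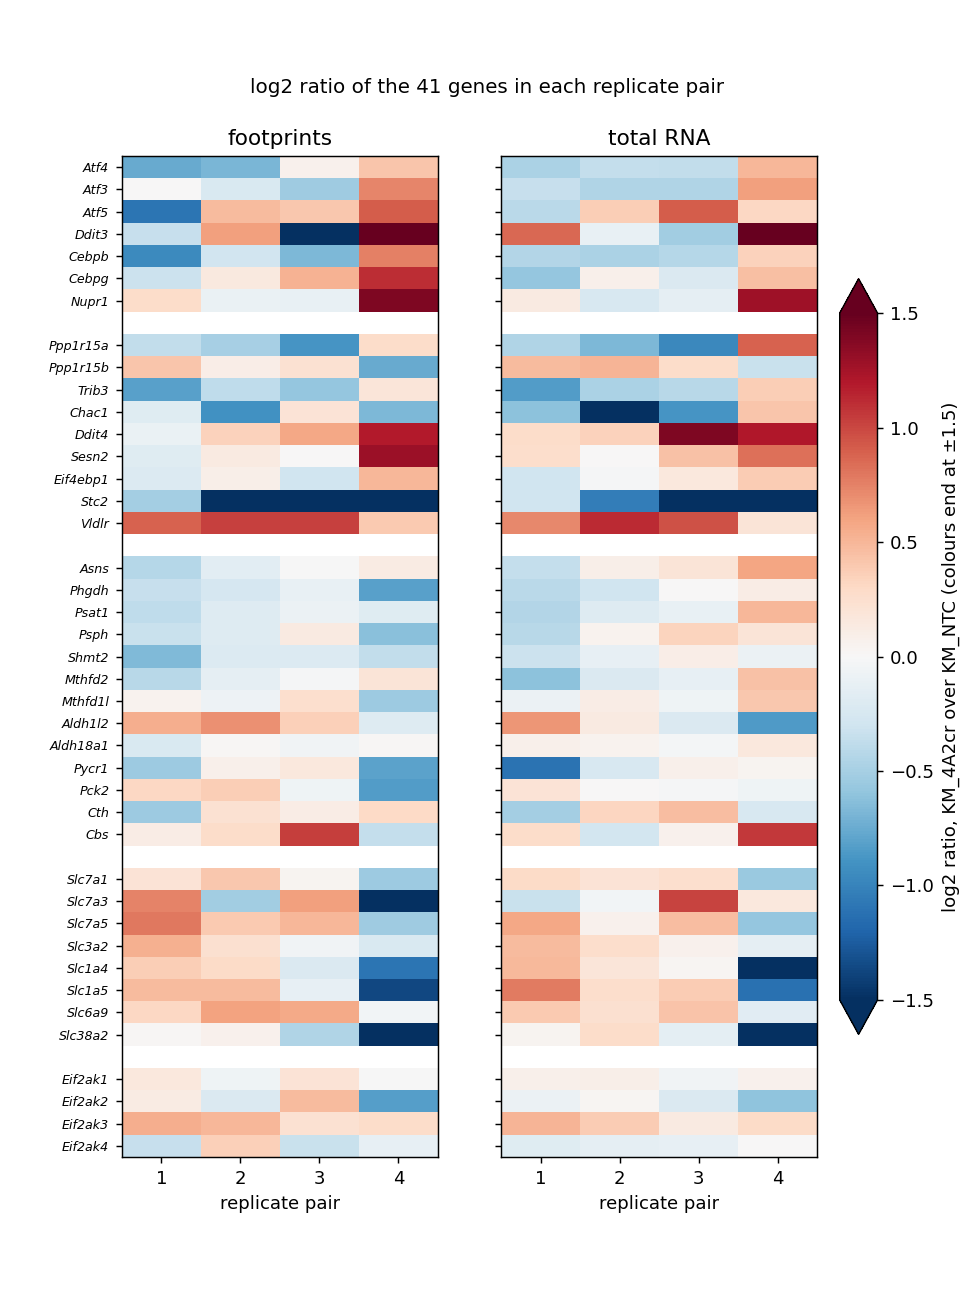
Log2 ratio of KM_4A2cr over KM_NTC in each replicate pair for the 41 genes, in footprints and in total RNA, in colours that end at ±1.5 and grouped by role (from the top: transcription factors, effectors, enzymes, transporters, kinases). In pair 4 the transcription factors are mostly above 0 and the transporters are mostly below 0, whereas pairs 1 and 2 mostly show the reverse.

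By role, the tested transcription factors had a median log2 ratio of -0.54, -0.17, -0.02 and 0.83 in RPF pairs 1 to 4, and all 6 were above 0 in pair 4. The transporters had medians of 0.37, 0.39, -0.05 and -0.55, with 7 of 7 above 0 in pairs 1 and 2 and 0 of 7 in pair 4. The RPF pair medians of all tested genes, which the scaling holds near 0, lay between -0.06 and 0.02. In total RNA the medians were -0.41, -0.24, -0.37 and 0.50 for the factors and 0.47, 0.24, 0.25 and -0.58 for the transporters. Pair 4 was the highest for the factors and the lowest for the transporters in both kinds, whereas the order of pairs 1 to 3 differed between them. With 1 pair on that day, the difference between pair 4 and the rest has no test of its own.

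Within both cell lines replicate 4 was the highest library for 8 of 39 members in RPFs (20.5%, beside 22% of all tested genes) and the lowest for 9 (23.1%, beside 23.1%). In total RNA it was the highest for 11 (28.2%, beside 23.3%) and the lowest for 11 (28.2%, beside 21.8%). In RPFs it was the lowest library of both lines for 8 of the 13 enzymes, including *Phgdh*, *Psat1*, *Psph* and *Shmt2*, and for 0 of the factors, effectors and kinases. In total RNA it was the lowest for 6 of 13 enzymes and the highest for 4 of 8 effectors and for *Atf3*, *Ddit3* and *Nupr1* among the factors. Depth was lowest in replicate 4 of each group, and its part in these differences was not tested.

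With replicate 4 left out, more genes passed the test in the whole table. In RPFs 33.4% of all genes passed and 12 of 39 members (30.8%) did, 6 in each direction, beside 19.1% of all genes higher and 14.3% lower. The lower ones were *Atf4* at -0.46 (SE 0.15), *Cebpb* at -0.63 (SE 0.14), *Ppp1r15a* at -0.60 (SE 0.20), *Trib3* at -0.58 (SE 0.14), *Shmt2* and *Stc2*, and the higher ones *Vldlr*, *Slc7a5*, *Slc6a9*, *Eif2ak3*, *Aldh1l2* and *Ppp1r15b*. In total RNA 19 of 40 members (47.5%) passed, beside 29.8% of all genes. They were 9 higher, beside 17.8%, and 10 lower, beside 12%. *Atf4* fell by 0.41 (SE 0.09), *Ppp1r15a* by 0.72 (SE 0.12) and *Chac1* by 1.08 (SE 0.26), while 5 of 7 transporters and *Eif2ak3* (0.34, SE 0.10) rose. The median of the tested members was -0.05 in RPFs and 0.0022 in total RNA.

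Footprints per mRNA, the ratio of RPF to total RNA CPM, show how heavily the coding sequence of one transcript was occupied, and are compared here only within a gene. For *Atf4* the ratio was 0.215, 0.198, 0.144 and 0.2 in KM_NTC and 0.176, 0.159, 0.195 and 0.189 in KM_4A2cr. The lines overlapped, and the change in footprints per mRNA was -0.06 on the log2 scale (SE 0.12, adjusted p = 0.856 by edgeR). *Ppp1r15a* was at 0.154, 0.142, 0.156 and 0.233 in KM_NTC and at 0.162, 0.158, 0.164 and 0.152 in KM_4A2cr, a narrow range apart from KM_NTC replicate 4. Its total RNA spanned 26.1 to 217 CPM over the same libraries.

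Of 38 members tested, 0 (0%) passed the test of footprints per mRNA, beside 2.91% of all 9989 genes (1.87% higher and 1.04% lower). An unadjusted p under 0.05 in edgeR was reached by 5 of the 38 members, beside 1410 of the 9989 genes. DESeq2 also called 0 of the members. The smallest adjusted p among the 7 tested members with listed upstream open reading frames was that of *Cebpg*, at 0.222, 0.293, 0.186 and 0.304 in KM_NTC and 0.265, 0.308, 0.313 and 0.481 in KM_4A2cr. It was higher in 4 of 4 pairs, by 0.41 on the log2 scale (SE 0.14, adjusted p = 0.135 by edgeR), and passed in 1 of 12 alternatives, without a filter on low counts, at 0.43. The other 6 were at or below 0, between -0.26 for *Atf5* and -0.02 for *Cebpb*, with *Ppp1r15b* at -0.23 (SE 0.10, adjusted p = 0.291 by edgeR). Without replicate 4, *Ddit4* alone of 39 members passed, beside 6.68% of all genes, 4.1% higher and 2.58% lower. It was at -0.39 on the log2 scale (SE 0.12, adjusted p = 0.056 by edgeR). The ratio of *Ddit4* was 0.882, 1.13, 1.54 and 0.968 in KM_NTC replicates 1 to 4 and 0.678, 1.12, 0.87 and 0.964 in KM_4A2cr. The gap was widest in replicate 3 and small in replicates 2 and 4.

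**Figure D4:**
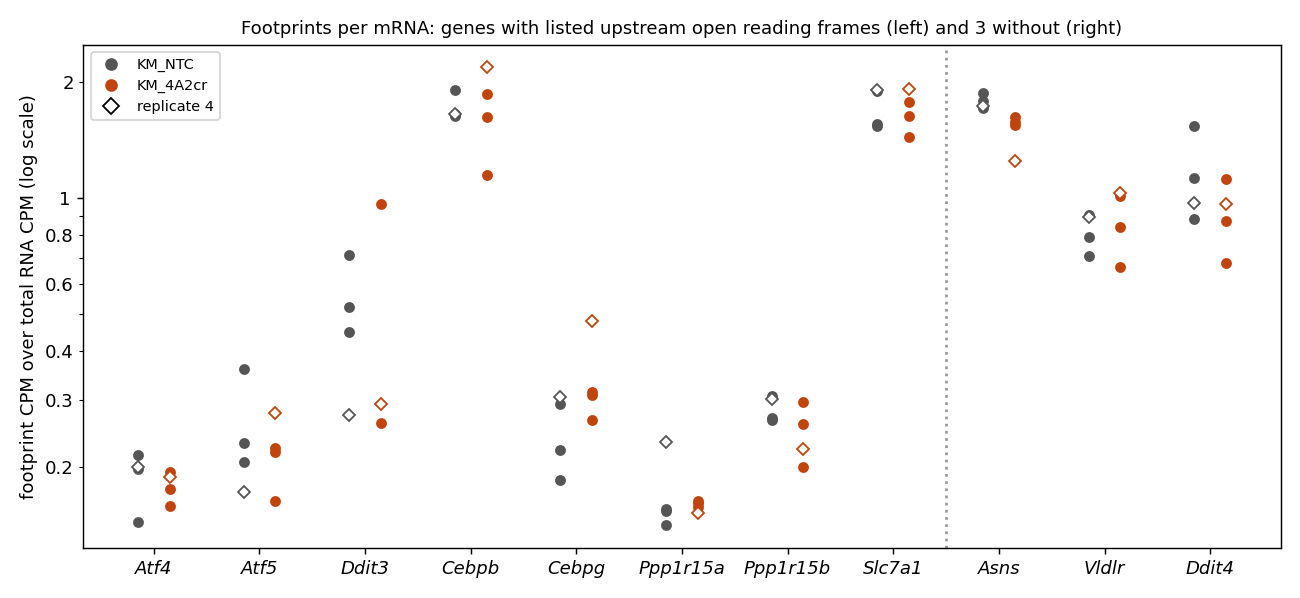
Ratio of footprint CPM to total RNA CPM on a log axis in each library, for the 8 members with listed upstream open reading frames and for *Asns*, *Vldlr* and *Ddit4*; open diamonds are replicate 4, and 1 KM_4A2cr library of *Ddit3* at 0 is not drawn. The 2 cell lines overlap for most genes, and *Ddit3* rests on few counts.

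Other genes of the pathway were taken from lists made by role. The 20 subunits and regulators of eIF2 and eIF2B had 0 calls in RPFs and in total RNA by edgeR. Of all genes, 10.3% were called in RPFs and 6.13% in total RNA, and the medians of the 20 were -0.13 and -0.03. An unadjusted p under 0.05 in edgeR was reached by 3 and 1 of the 20, beside 2411 of 10291 and 1995 of 10880 genes. *Eif2b5*, the catalytic subunit of the exchange factor eIF2B, was called lower in footprints per mRNA at -0.37 (SE 0.11, adjusted p = 0.0914 by edgeR). It was the 1 call among the 20 (5%), beside 2.91% of all genes in either direction. Of 25 further ATF4 targets tested, 3 were higher and 2 lower in RPFs (20% called, beside 10.3% of all genes), and 2 were higher and 0 lower in total RNA (8%, beside 6.13%). *Ero1a*, an oxidase of disulfide formation in the endoplasmic reticulum, was at 0.90 (SE 0.14), and *Vegfa*, an angiogenic factor, at 0.57 (SE 0.15). *Cars1*, the cysteinyl-tRNA synthetase, was at -0.43 (SE 0.12), and the list's median was -0.13.

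The list for the IRE1 and ATF6 arms of the endoplasmic reticulum response and their chaperones held the most calls. Of 23 genes tested, 9 (39.1%, beside 6.6% of all genes) were higher and 0 lower in RPFs, with 21 above 0 and a median of 0.40. In total RNA 6 (26.1%, beside 4.35%) were higher, 23 of 23 were above 0 and the median was 0.40. *Dnajb9* and *Creld2*, which act in protein folding, were at 0.83 (SE 0.12) and 0.84 (SE 0.12) in RPFs, and *Edem1*, of the degradation pathway, at 0.82 (SE 0.12). No test compared this list with the members, and the same cell lines entered both. The list was also made with earlier results of these data known, so its counts are a description only.

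The 5 tested cytosolic folate enzymes were all below 0 in RPFs with a median of -0.30. In edgeR 0 of the 5 passed the test, beside 10.3% of all genes. An unadjusted p under 0.05 was reached by 2 of the 5, beside 2411 of 10291 genes. The 11 other amino acid transporters tested had a median of 0.11. *Slc36a4*, a lysosomal amino acid carrier, alone was called (9.09% of the 11 in RPFs, beside 10.3% of all genes in either direction). It summed to 21 RPF counts in KM_NTC and 95 in KM_4A2cr and passed the filter only through KM_4A2cr, where it was high, at 0.665 ± 0.367 CPM in KM_NTC and 3.31 ± 0.894 CPM in KM_4A2cr (SD, n = 4) and a log2 fold change of 2.43 (SE 0.38, adjusted p = 0.0129 by edgeR). In RPFs 11 of these 11 were above 0 in pairs 1 and 2 and 1 of 11 in pair 4, where 0 of the 7 tested member transporters was.

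**Figure D5:**
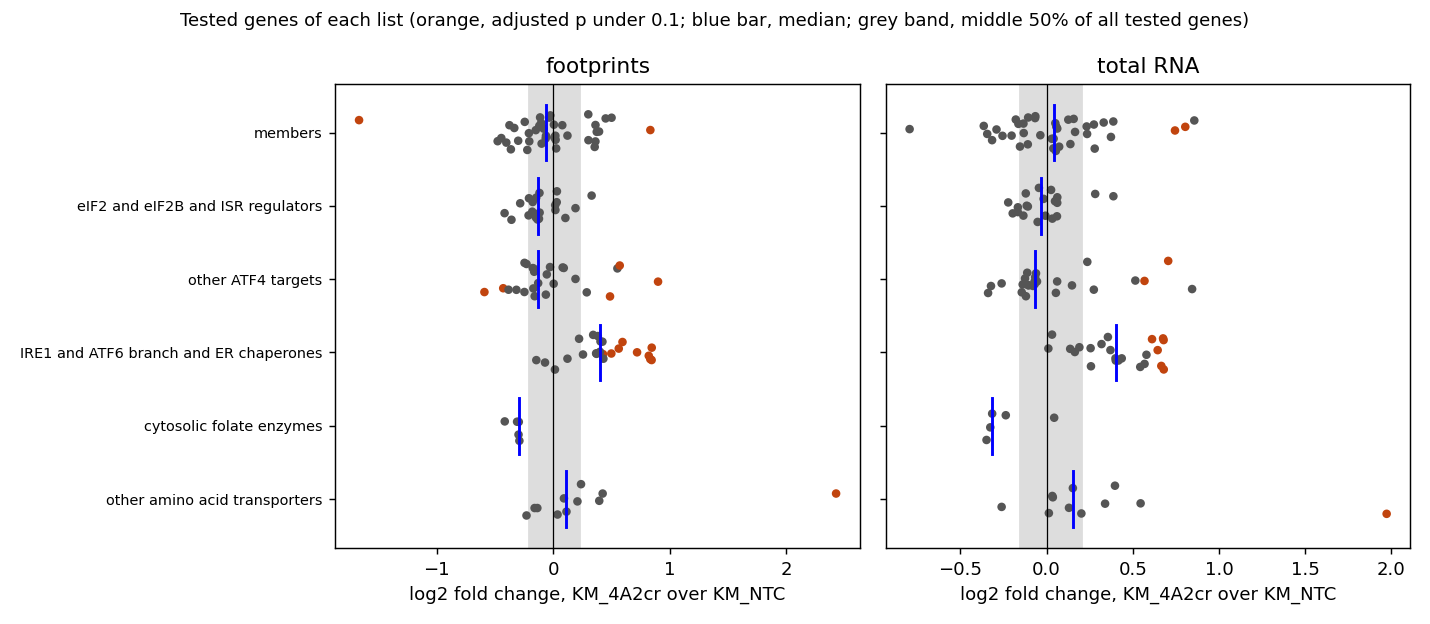
Log2 fold change of each tested gene, KM_4A2cr over KM_NTC, in footprints and in total RNA, for the members and 5 related lists, with a bar at each median and a band over the middle 50% of all tested genes. The members are centred near 0, at medians of -0.06 and 0.04, and the IRE1 and ATF6 list at 0.40 in both kinds.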

How the data were processed

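Both kinds of library, RPFs and total RNA, came from each lysate of the 2 cell lines. A further part of the mouse's genotype, shared by both lines, is not reported here. The RPF tables are counts as deposited, 1 transcript per gene. Reads had been trimmed with Cutadapt 1.18, aligned with BBmap to GENCODE vM27 transcripts (1 per gene, the most abundant) and deduplicated with UMI-tools 1.0.1. Fragments of 28 to 33 bases within the coding sequence were counted, leaving out 20 codons at its start and 10 at its end. Footprints that lie before the coding sequence therefore add no counts. Counts were not split by reading frame, so an upstream open reading frame that reaches beyond the first 20 codons could still add some. The total RNA tables give expected counts and TPM per isoform, which the authors made with RSEM 1.3.3 after Bowtie2 2.3.5.1 alignment. Both were summed per gene here, and the expected counts were rounded. Levels of different genes were compared by TPM only, since no table of coding lengths was used here, and the planned RPF level per codon was not made. How RPF reads matching several transcripts were handled is not given in the sources used here, so genes with near-identical copies are uncertain.

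Tests used R 4.3.3, edgeR 4.0.16 (filterByExpr, TMM within each kind, glmQLFit, glmQLFTest) and DESeq2 1.42.0 as an alternative. The terms were cell line and, as a block, replicate number, with Benjamini-Hochberg adjustment over all tested genes and a threshold of 0.1. Footprints per mRNA were tested as the interaction of cell line and kind over 16 libraries, with terms for lysate and for replicate within kind. Each test was tried on simulated counts with 200 changed genes. The replicate numbers pair the samples: the labels place replicates on different days, and deviations of same-numbered libraries from their line means correlated at 0.575 to 0.782 in RPFs and 0.611 to 0.756 in total RNA. Pair ratios are differences of log2 CPM with a prior count of 2. Because each kind is scaled to its own total, a change of all footprints or all mRNA leaves no trace. Library totals set the precision, so values of scarce members such as *Stc2* and *Chac1* rest on few counts.

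The members and lists were chosen with earlier results of these data known. Named in full were members past the threshold and 14 members fixed by symbol (*Atf4*, *Ddit3*, *Ppp1r15a*, *Ppp1r15b*, *Asns*, *Trib3*, *Chac1*, *Psat1*, *Phgdh*, *Mthfd2* and the kinases), with up to 3 genes per list by smallest RPF p; *Atf3*, *Slc38a2*, *Shmt2*, *Cebpg* and the members named by pair pattern were added after their values were seen. The p-values measure the spread between experiments on 1 pair of lines. Alternatives were no block, DESeq2, 3 scalings, 2 filters, a threshold of 0.05, total RNA limited to the transcript used for RPFs, and each replicate left out.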

Additional observations from a re-analysis of the deposited data

Results flagged for a closer look

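In 66 groups of 4 libraries of the members named in full, each with at least 20 counts in all, 6 held a library set apart from the other 3 by Dixon's criterion. For independent groups of normally distributed values, chance gives about 1 in 20, or 3.3. Here RPFs and total RNA share lysates and all genes share the replicates, so the 6 are a description only. Replicate 4 was the library in 5 of the 6. *Ddit3* total RNA stood out in replicate 4 of both lines, at 6.89 CPM in KM_NTC against 1.21 to 1.53 in the others and at 21.2 CPM in KM_4A2cr against 0.756 to 2.78. *Ppp1r15a* stood out in replicate 4 of KM_4A2cr, at 33.1 CPM in RPFs against 4.22 to 5.9 and at 217 CPM in total RNA against 26.1 to 37.2. *Vldlr* RPFs were at 407 CPM in KM_NTC replicate 4 against 70.2 to 113. The exception was *Chac1*, at 5.79 RPF CPM in KM_4A2cr replicate 1 against 0.981 to 1.72. Depth was lowest in replicate 4 of each group, and its part was not tested.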

How the results depend on the processing

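Of 589 values of named members under alternatives, 527 kept their direction and their side of the threshold, 19 newly passed, 15 no longer passed and 28 changed sign. Over all members, 0 of the 102 values that changed sign had passed the threshold in either fit. Without the replicate block, the pairing being ignored, edgeR called 0 genes in RPFs, total RNA and footprints per mRNA (365, 362 and 22 at an unadjusted p under 0.05) and 0 members. At a threshold of 0.05 the counts were 442, 321 and 76 genes, with 1 member in RPFs and 1 in total RNA. Scaling to library size alone gave 1619, 1129 and 132 genes and 5 members in RPFs. It shifted the median over every gene tested by -0.14 for RPFs and by -0.16 for total RNA. The share of calls that were higher went from 63.9% to 29.8% in RPFs, from 70.9% to 23.2% in total RNA and from 64.3% to 78.8% in footprints per mRNA. With upper-quartile factors it was 53.5% in RPFs and 60.1% in total RNA, and with DESeq2 75% in footprints per mRNA. Without a filter on low counts, 1268 genes and 5 members were called in total RNA, and 475 genes and 1 member, *Cebpg*, in footprints per mRNA, where DESeq2 called 136 genes. With a mean of at least 50 counts, 1 member was called in RPFs. Total RNA limited to the transcript used for RPFs gave 500 genes in total RNA and 252 in footprints per mRNA and changed no call or direction of a named member.

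With each replicate left out in turn, calls ran from 32 to 3469 genes and 0 to 12 members in RPFs, from 63 to 3260 genes and 0 to 19 members in total RNA, and from 10 to 673 genes and 0 to 1 members in footprints per mRNA. The fewest came without replicate 3 in RPFs and total RNA and without replicate 1 in footprints per mRNA, the most without replicate 4. The cause was not tested.

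Signs changed for the named members as follows. *Ppp1r15a* total RNA was 0.17 without the block. *Ppp1r15b* RPFs were -0.00090 without the block, -0.12 with library size alone, -0.032 with upper-quartile factors and -0.0013 without a filter. Library size alone gave -0.031 for *Asns* total RNA, -0.055 for *Eif2ak1* RPFs and -0.11 for its total RNA. Leaving out replicates gave ranges of -0.14 to 0.26 for *Ppp1r15b* RPFs, -0.027 to 0.28 for *Asns* total RNA, -0.25 to 0.058 for *Psat1* total RNA, -0.32 to 0.026 for *Mthfd2* total RNA, -0.19 to 0.0070 for *Mthfd2* RPFs, -0.23 to 0.088 for *Eif2ak2* RPFs and -0.27 to 0.0023 for *Eif2ak4* RPFs. In footprints per mRNA the ranges were -0.20 to 0.033 for *Atf4*, -0.25 to 0.12 for *Ppp1r15a*, -0.11 to 0.028 for *Trib3*, -0.18 to 0.035 for *Psat1*, -0.29 to 0.011 for *Phgdh*, -0.0012 to 0.13 for *Mthfd2*, -0.012 to 0.090 for *Eif2ak1*, -0.054 to 0.27 for *Eif2ak2* and -0.17 to 0.14 for *Eif2ak4*. The planned RPF level per codon, with its alternative, was not run. With 4 pairs and few counts, changes of scarce members such as *Ddit3*, *Chac1* and *Stc2* were not well resolved.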
